A study of Mus musculus with 18 samples.

Results

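Matrix metalloproteinases (MMPs) and their tissue inhibitors (TIMPs) were followed in sorted mouse cancer cells as 10 genes chosen by symbol: Mmp2, Mmp3, Mmp9, Mmp10, Mmp11, Mmp13, Mmp14, Timp1, Timp2 and Timp3. All 10 were present among the 24443 symbols that both deposited count tables share, and all 10 passed the filter on low counts in both. Timp3 in 168FARN and Mmp2 in LLC1 had too few reads in cells alone and passed only through the cocultures, so their rise with fibroblasts was a condition of being tested. MMPs are zinc-dependent endopeptidases that cleave collagens, other matrix proteins and many secreted or surface proteins, and most are made as inactive zymogens that need proteolytic activation. TIMPs bind the active site and inhibit them, while TIMP2 also takes part in the activation of pro-MMP2 by the membrane-bound MMP14. In carcinomas, both cancer cells and stromal fibroblasts can be sources of these enzymes.

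RNA was sequenced from GFP-labelled cancer cells of 2 mouse lines grown as hanging drop spheroids alone or with fibroblasts, at 3 fibroblasts for each cancer cell. The labelled cells were sorted from the spheroids by their GFP, according to the methods. 168FARN is a breast cancer line and was cocultured with MMTV-CAF, cancer-associated fibroblasts from mammary tumors of MMTV-PyMT mice, in which a mammary promoter drives a viral oncogene. LLC1 is a lung cancer line and was cocultured with wound healing fibroblasts taken from dorsal skin on day 10 after wounding. Each line had 3 libraries for cells alone, 3 with WT fibroblasts (carrying the control guide sgNS) and 3 with sgPrrx1 fibroblasts (Prrx1 deleted with CRISPR/Cas9), 18 libraries in all. No cancer cell carried the deletion, and the line and the kind of fibroblast changed together, so the effects of line and fibroblast cannot be told apart. Nothing in the labels shows whether the 3 libraries of a group were separate cultures, and p-values then measure the spread between these libraries, which may be technical.

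The 168FARN libraries held 48315037 to 68933002 counts and those of LLC1 66129117 to 103997557. LLC1 sgPrrx1 replicate 3 stood apart, with a lowest correlation of log2 CPM of 0.949 with its replicates, which correlated with each other at 0.991, so LLC1 results are given with and without it. The summed level of 14 fibroblast marker genes in 168FARN was 237 CPM in all 3 libraries of cells alone, 1365 to 1469 CPM with WT fibroblasts and 364 to 373 CPM with sgPrrx1 fibroblasts, where CPM is counts per 1000000 of the scaled library total. In LLC1 the same sum was 1825 to 1925, 1360 to 1397 and 1683 to 1789 CPM, and most of it was Col3a1, at 1579 CPM in cells alone. The 6 defining markers (Col1a1, Col1a2, Col3a1, Dcn, Lum and Pdgfra) gave 80.2 to 82.8, 732 to 801 and 193 to 200 CPM in 168FARN and 1632 to 1714, 1180 to 1203 and 1477 to 1564 CPM in LLC1, and the only one at 0 in every library of a group was Lum in 168FARN sgPrrx1. The 6 leukocyte markers summed to 47.6 to 51.7, 29.0 to 31.9 and 34.97 to 35.98 CPM in the 3 groups of 168FARN, with Ptprc at 0 throughout, and to 16.0 to 17.3, 36.5 to 38.3 and 36.5 to 64.9 CPM in LLC1, with Adgre1 at 0 throughout. The 4 endothelial markers summed to 0.534 to 0.545, 5.65 to 6.74 and 4.08 to 4.64 CPM in 168FARN, mostly Cdh5, which was higher with WT than alone (log2 fold change 4.35, adjusted p = 3.30e-08), with Emcn at 0 throughout, and to at most 0.235 CPM in LLC1. Among 8 epithelial markers, 168FARN expressed mainly Krt8, at 331 CPM in cells alone, with Epcam, Krt5 and Krt19 at 0 in all 3 of these libraries. With WT fibroblasts Krt19 was at 3.09 CPM (143 to 224 reads), and with sgPrrx1 fibroblasts at 0. In LLC1 the 8 markers together stayed under 0.755 CPM. In bulk RNA, fewer cells of a type and less RNA per cell cannot be told apart.

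Of the 10 genes, Mmp13, Mmp3 and Mmp10 lie within 238 kb on chromosome 9 in the order Mmp13, Mmp3, Mmp10, with gaps of 162 and 46.4 kb between neighbours. Windows from 250 bases before to 50 bases after the annotated start were taken from RefSeq for GRCm38.p6, which is the same assembly as mm10. Of the 10 genes, 8 had a window, all but Mmp2 and Mmp9. The AP-1 motif (TGAGTCA or TGACTCA, which are each other's reverse complement, so that both strands were searched) was present in 3 of the 8 windows and in 5.2% of 32851 windows of this length over all genes. These 3 were the windows of the chromosome 9 genes, and the same 3 held the TATA box letters TATAAA on the gene's strand, which 8.32% of all windows held, while 0.624% of all windows held both. The windows are shown because these neighbours share both motifs and, as described below, part in their response to sgPrrx1 fibroblasts. Capitals mark the letters of the AP-1 motif and the letters TATAAA, and each sequence runs 5′ to 3′ on the gene's strand.
Mmp13, chr9:7272264-7272563, + strand: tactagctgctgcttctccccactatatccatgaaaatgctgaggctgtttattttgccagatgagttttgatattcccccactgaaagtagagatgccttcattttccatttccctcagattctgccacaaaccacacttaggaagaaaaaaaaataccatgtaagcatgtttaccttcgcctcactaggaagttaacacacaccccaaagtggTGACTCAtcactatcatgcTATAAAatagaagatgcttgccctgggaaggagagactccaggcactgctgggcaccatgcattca
Mmp3, chr9:7445572-7445871, + strand: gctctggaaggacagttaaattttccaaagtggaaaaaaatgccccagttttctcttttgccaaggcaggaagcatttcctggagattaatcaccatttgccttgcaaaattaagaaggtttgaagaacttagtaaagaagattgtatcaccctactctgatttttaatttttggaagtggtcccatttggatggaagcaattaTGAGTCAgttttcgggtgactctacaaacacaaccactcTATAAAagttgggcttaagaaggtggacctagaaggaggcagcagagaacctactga
Mmp10, chr9:7502092-7502391, + strand: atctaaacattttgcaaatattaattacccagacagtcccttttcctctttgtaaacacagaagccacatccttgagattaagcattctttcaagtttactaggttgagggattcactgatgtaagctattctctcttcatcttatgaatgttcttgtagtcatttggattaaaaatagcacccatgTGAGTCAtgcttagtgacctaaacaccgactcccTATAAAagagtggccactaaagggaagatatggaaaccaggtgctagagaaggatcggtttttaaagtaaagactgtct
The AP-1 motif began 35 bases before the start of Mmp13, 46 before that of Mmp3 and 63 before that of Mmp10. TATAAA began 16, 7 and 29 bases before the start in the same order. A match of letters is a description of the window and not evidence that a factor binds there. The windows of Mmp11, Mmp14, Timp1, Timp2 and Timp3 held neither motif.

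The first question was how the genes ranked in cancer cells grown without fibroblasts. In 168FARN alone, levels per kilobase of transcript were highest for the inhibitor Timp2, at 118 ± 0.751 CPM per kb (SD, n = 3), followed by the gelatinase Mmp9 at 103 ± 1.19 and Timp1 at 76.9 ± 0.546 CPM per kb. Mmp14, Mmp3, Mmp10, Mmp11, Mmp13 and Mmp2 followed in that order, from 23.6 down to 3.15 CPM per kb, and Timp3 was last at 0.0022 CPM per kb. No neighbours in this order overlapped over the 3 libraries. In LLC1 alone, Mmp14 led at 173 ± 8.62 CPM per kb, and Timp2 followed at 106 ± 2.80 and Mmp3 at 49.2 ± 2.62 CPM per kb. Timp1, Mmp11, Mmp13, Mmp10 and Mmp9 came next, from 33.2 to 1.41 CPM per kb. Timp3 (0.058 CPM per kb) and Mmp2 (0.0278 CPM per kb) came last and overlapped each other.

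Cells of both lines alone were then compared in a joint fit of all 18 libraries, in which 9 of the 10 genes differed, 5 of them higher and 4 lower in LLC1, against 33.2% and 37.7% of 14365 genes. Mmp9 was at 324 to 331 CPM in 168FARN and 4.26 to 4.68 CPM in LLC1 (each line scaled on its own), with a fitted log2 difference of -6.08 (SE 0.0621, adjusted p = 6.89e-18, edgeR's quasi-likelihood test). Mmp2, a gelatinase like Mmp9, was lower in LLC1 by a log2 difference of -6.70 (adjusted p = 1.62e-09), and Mmp10 and Timp1 were lower by -2.16 and -1.11. Mmp14, the membrane-type collagenase and activator of pro-MMP2, was higher in LLC1 by 2.98 on the log2 scale (adjusted p = 1.40e-12). Mmp3 (1.95), Mmp11 (1.74), Mmp13 (1.18) and Timp3 (4.38) were also higher in LLC1. The size for Timp3 rests on at most 2 reads per library in 168FARN alone and 14 to 34 in LLC1 alone. That for Mmp2 rests on at most 12 reads per library in LLC1 alone. For Timp2 the difference was -0.05 (95% confidence interval -0.19 to 0.08, adjusted p = 0.454). The stromelysins did not share a direction, with Mmp3 and Mmp11 higher and Mmp10 lower in LLC1. As 70.9% of all genes differed between the lines, the number called is not a result about these genes.

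Whether these genes differed between 168FARN with WT fibroblasts and alone was asked next. All 10 genes passed the threshold on the adjusted p of 0.05, 8 higher and 2 lower with WT fibroblasts, against 33.4% of 13540 genes called higher and 30.7% called lower. The median log2 fold change of the 10 was 1.67, beside 0.01 over all genes tested. The WT and alone libraries did not overlap for any of the 10 genes, but the share of all genes for which this held was not worked out. Adjusted p-values ran from 1.03e-12 to 4.52e-05 in edgeR's quasi-likelihood test. As 64.1% of all genes were called in either direction, the direction and size of each gene's change are given rather than the number called.

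**Figure D1:**
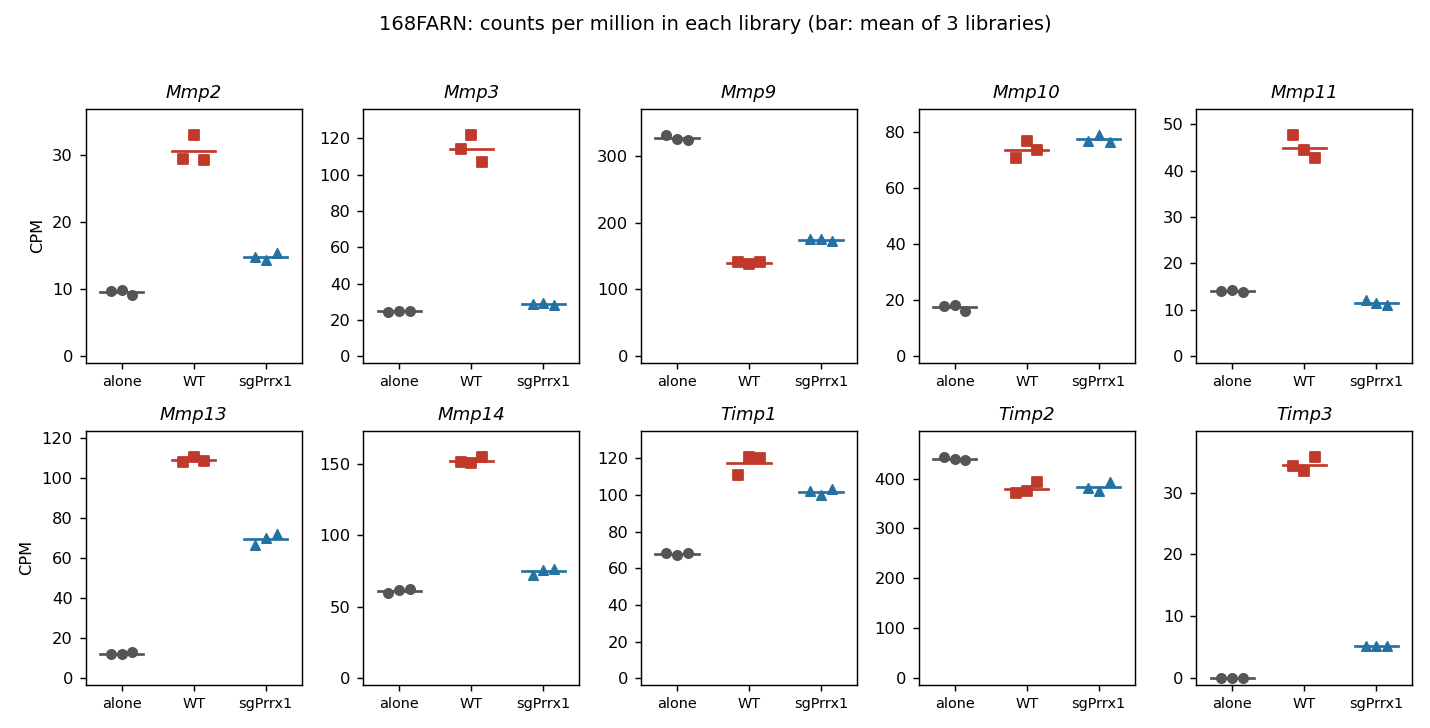
Level of each of the 10 genes in CPM (vertical axes, each starting near 0) in the 9 libraries of 168FARN, for cells alone (circles), with WT fibroblasts (squares) and with sgPrrx1 fibroblasts (triangles), with bars at the mean of 3 libraries. Mmp3, Mmp11, Mmp14 and Timp3 were highest with WT fibroblasts, whereas Mmp10 was high in both cocultures and Mmp9 and Timp2 were highest in cells alone.

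Among the collagenases and stromelysins, Mmp13 (collagenase-3, chr9:7272514-7283333, GRCm38.p6) read 12.1, 11.9 and 12.9 CPM in 168FARN alone, 108, 110 and 109 CPM with WT fibroblasts and 66.5, 70.1 and 72.1 CPM with sgPrrx1 fibroblasts. The 3 groups were apart, with sgPrrx1 between the other two. Mmp13 was higher with WT fibroblasts than alone by 3.15 on the log2 scale (SE 0.0417, 8.86-fold, adjusted p = 1.03e-12). The level with sgPrrx1 fibroblasts was lower than with WT by a log2 fold change of -0.65 (SE 0.0371, adjusted p = 1.21e-07). Mmp3 (stromelysin-1, chr9:7445822-7455975), which cleaves proteoglycans and activates other pro-MMPs, read 24.1, 24.6 and 25.0 CPM alone, 114, 122 and 107 CPM with WT and 28.4, 29.2 and 27.9 CPM with sgPrrx1 fibroblasts. Its sgPrrx1 libraries lay just above cells alone and far below WT. The rise with WT was 2.22 (SE 0.0454, adjusted p = 2.33e-11) and the sgPrrx1 against WT change was -2.004 (SE 0.0449, adjusted p = 1.76e-10). Mmp10 (stromelysin-2, chr9:7502342-7510242), a close relative of Mmp3, read 17.98, 18.08 and 16.1 CPM alone, 70.8, 76.9 and 73.8 CPM with WT and 76.9, 78.9 and 76.7 CPM with sgPrrx1 fibroblasts. Both cocultures were high and overlapped. Its rise with WT was 2.08 (adjusted p = 5.32e-11), while sgPrrx1 differed from WT by 0.07 (95% confidence interval -0.03 to 0.17, adjusted p = 0.188). When the fit held only WT and sgPrrx1 libraries, that small difference passed at 0.10 (adjusted p = 0.0407).

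Mmp11 (stromelysin-3, chr10:75923221-75932502), often described as a stromal enzyme in breast carcinoma, read 14.0, 14.3 and 13.8 CPM in 168FARN alone, 47.6, 44.5 and 42.7 CPM with WT and 12.0, 11.4 and 11.1 CPM with sgPrrx1 fibroblasts. With sgPrrx1 fibroblasts it was below the level of cells alone in every library. The log2 fold changes were 1.68 for WT against alone (SE 0.0490), -1.97 for sgPrrx1 against WT (SE 0.0498, adjusted p = 4.12e-10) and -0.29 for sgPrrx1 against alone (SE 0.0519, adjusted p = 0.000729). Mmp14 (MT1-MMP, chr14:54431598-54442456) read 59.7, 61.6 and 62.3 CPM alone, 152, 150 and 154 CPM with WT and 72.4, 76.0 and 76.3 CPM with sgPrrx1 fibroblasts. It therefore rose in both cocultures, and far more with WT. Its log2 fold changes were 1.31 for WT against alone (SE 0.0303) and -1.02 for sgPrrx1 against WT (SE 0.0300, adjusted p = 1.10e-09).

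The 2 gelatinases moved in opposite directions. Mmp2 (gelatinase A, chr8:92827290-92853421), a substrate of MMP14 as a proenzyme, read 9.70, 9.83 and 9.16 CPM in 168FARN alone, 29.4, 32.9 and 29.2 CPM with WT and 14.7, 14.3 and 15.4 CPM with sgPrrx1 fibroblasts. Mmp2 was higher with WT than alone by 1.67 (SE 0.0579, adjusted p = 1.45e-09), and sgPrrx1 differed from WT by -1.04 (SE 0.0556, adjusted p = 7.61e-08). Mmp9 (gelatinase B, chr2:164940326-164955850) read 331, 325 and 324 CPM alone, 141, 138 and 141 CPM with WT and 176, 175 and 173 CPM with sgPrrx1 fibroblasts. It was the only one of the 7 MMPs that was lower in both cocultures, with a log2 fold change of -1.22 for WT (SE 0.0246, adjusted p = 1.98e-11) and -0.90 for sgPrrx1 against alone (adjusted p = 3.60e-10), and it was slightly higher with sgPrrx1 than with WT, by 0.32 (SE 0.0243, adjusted p = 9.75e-07). In CPM per kb, Mmp9 went from 103 in cells alone to 44.1 with WT fibroblasts, where it overlapped Mmp10 (42.9), which in turn overlapped Mmp13 (40.7).

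The inhibitors split likewise. Timp3 (chr10:86300412-86349505), which is held in the extracellular matrix and inhibits ADAM proteases as well as MMPs, had 0, 2 and 0 reads in 168FARN alone, and 34.4, 33.5 and 35.7 CPM with WT and 5.15, 5.15 and 5.28 CPM with sgPrrx1 fibroblasts. From cells that barely had a read, it reached 6471 reads over the 3 WT libraries, a ratio of 2776 with a counting interval of 768 to 22930, and 867 reads over the 3 sgPrrx1 libraries, a ratio of 419 with an interval of 116 to 3469. These intervals cover counting error only. Between the cocultures, where both levels were well measured, sgPrrx1 was lower than WT by -2.73 (SE 0.0736, adjusted p = 6.79e-10). Timp1 (chrX:20870166-20874737), an inducible secreted inhibitor, read 68.3, 67.4 and 68.2 CPM alone, 111, 120 and 120 CPM with WT and 102, 100 and 103 CPM with sgPrrx1 fibroblasts. It rose by 0.79 with WT (SE 0.0337, adjusted p = 7.75e-09) and was lower with sgPrrx1 than WT by -0.20 (SE 0.0333, adjusted p = 0.000298). Timp2 (chr11:118301061-118355411), usually described as constitutively expressed, read 442, 439 and 437 CPM alone, 372, 375 and 393 CPM with WT and 380, 374 and 393 CPM with sgPrrx1 fibroblasts. Both cocultures lay below cells alone and overlapped each other. Timp2 changed by -0.21 with WT (SE 0.0272, adjusted p = 4.52e-05), and sgPrrx1 differed from WT by 0.01 (95% confidence interval -0.05 to 0.07, adjusted p = 0.784).

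Over the 10 genes in 168FARN, sgPrrx1 against alone called 7 higher and 3 lower, against 25.7% and 24.1% of all genes, and sgPrrx1 against WT called 1 higher and 7 lower, against 26.9% and 33.1%. The median of the 10 was 0.44 in the first of these, beside 0.00 over all genes, and -0.83 in the second, beside -0.03. These comparisons share the alone or WT libraries with the comparison of WT and alone and are not independent of it. The position of the sgPrrx1 mean in CPM between the means of cells alone (0%) and WT coculture (100%) describes how the genes part. Mmp10 stood at 107% (105 to 109% over its 3 libraries), Timp2 at 95.7% (78.7 to 109%), Mmp9 at 81.5% (80.9 to 82.3%), Timp1 at 68.6% (65.3 to 71.3%) and Mmp13 at 59.3% (56.1 to 61.9%). The libraries of Timp2 were the widest of the 10 and overlapped those of Mmp10 and Mmp9, so its place in this order was not resolved. Mmp2 stood at 25.1% (22.8 to 27.9%), Mmp14 at 15.1% (12.4 to 16.7%), Timp3 at 15.02% (14.9 to 15.3%), Mmp3 at 4.39% (3.68 to 5.19%) and Mmp11 at -8.37% (-9.78 to -6.60%), with Mmp14 and Timp3 overlapping. On the log2 scale of the fitted changes, Timp3 stood at 75.6% instead, a value that rests on 2 reads in cells alone, beside 79.5% for Mmp13, 74.1% for Timp1 and 74.0% for Mmp9. On that scale Mmp10 stood at 103%, Timp2 at 95.4%, Mmp2 at 37.7%, Mmp14 at 22.2%, Mmp3 at 9.66% and Mmp11 at -17.6%. So on either scale the WT change was largely present with sgPrrx1 fibroblasts for Mmp10 and Timp2 and largely missing for Mmp3, Mmp11 and Mmp14, and the order of the genes between them depended on the scale, most of all for Timp3. The chromosome 9 neighbours Mmp13, Mmp3 and Mmp10, each 4.24-fold or more higher with WT fibroblasts, took 3 different positions on the CPM scale, and their libraries did not overlap on it.

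**Figure D2:**
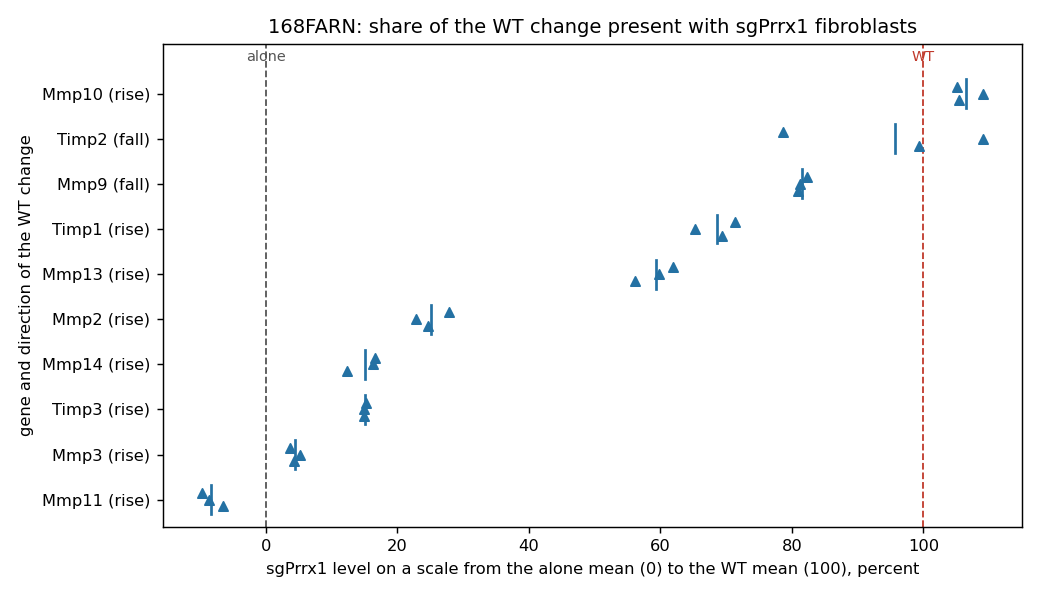
Level of each gene with sgPrrx1 fibroblasts in 168FARN (triangles, 1 per library, with a bar at the mean), in percent of the way in CPM from the mean of cells alone (0) to the mean with WT fibroblasts (100), with the direction of the WT change beside each name. Mmp10, Timp2 and Mmp9 lie near the WT mean and Mmp3 and Mmp11 near the mean of cells alone, with Mmp13 and Timp1 between.

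The fibroblast markers moved with part of this pattern. The sum of 14 markers in the sgPrrx1 libraries (364 to 373 CPM) lay much nearer to cells alone (237 CPM) than to WT (1365 to 1469 CPM). On the CPM scale so did Mmp2, Mmp3, Mmp11, Mmp14 and Timp3, while Mmp9, Mmp10, Mmp13, Timp1 and Timp2 did not. On the log2 scale Timp3 stood at 75.6% of the WT change and so with the latter genes. The markers did not all follow their sum. Of the 12 tested, 11 were higher with WT than alone (33.4% of all genes were), all 12 were lower with sgPrrx1 than with WT (33.1%), and 7 were higher and 1 lower with sgPrrx1 than alone (25.7% and 24.1%). These counts include genes that entered only through the group where they were high, namely Col1a2 (4 to 8 reads alone), Thy1 and Postn (0 reads alone, and at most 4 with sgPrrx1). Col1a2, a fibrillar collagen chain and a defining marker, went from 0.103 to 148 and 12.9 CPM, and Postn from 0 to 22.2 and 0.0223 CPM over the means of alone, WT and sgPrrx1. Dcn, the proteoglycan decorin, was at 0.275, 92.8 and 43.3 CPM and the receptor Pdgfra at 69.3, 131 and 97.5 CPM, both nearer the middle with sgPrrx1. Pdgfrb was at 43.1, 40.6 and 26.7 CPM and did not pass for WT against alone, and the markers not tested, Lum and Fap, were at most at 0.10 CPM in each group. Their part in the results was not tested. By the highest correlation of log2(CPM + 0.1) over the 9 libraries, among 10875 genes with a mean of at least 100 counts, the gene most like Timp3 was Col1a2 (r = 0.998) and the gene most like Mmp3 was Col6a3 (r = 0.998), both on the marker list. The gene most like Mmp10 was Areg, the EGF receptor ligand amphiregulin (r = 0.999), at 31.95, 78.1 and 82.6 CPM in the 3 groups. Mmp9 was most like Gpnmb (r = 0.999), Mmp2 like Elf4 (0.997), Mmp11 like Cpd (0.999), Mmp13 like Slc25a4 (0.999), Mmp14 like Aldh18a1 (0.998), Timp1 like Atp10a (0.998) and Timp2 like Zfp692 (0.987). The libraries fall into 3 groups, and between 137 and 643 genes correlated above 0.95 with each of the 10, so that the nearest gene is 1 of many. Slc25a4 was at 0, 16.1 and 4.76 CPM over the 3 groups, so its correlation with Mmp13 rests in part on the 0.1 added to zeros, as that of Timp3 and Col1a2 does on values near 0 in cells alone.

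In LLC1 the question was the same for WT wound healing fibroblasts. Only 3 of the 10 genes passed, Mmp2 and Timp3 higher and Mmp13 lower, against 4.25% of 12873 genes called higher and 4.58% called lower, and the median of the 10 was -0.12 beside -0.02 over all genes. Without sgPrrx1 replicate 3, which shares the fit, Mmp9, Mmp11 and Timp1 passed as well, 6 genes in all, against 44.2% of 13088 genes in either direction. The log2 fold changes were close in these fits, at -1.34 and -1.33 for Mmp13 and 3.07 and 3.08 for Timp3. Leaving out alone replicate 1 or 3 or any 1 WT replicate left 1 gene called, Mmp13, and leaving out alone replicate 2 left 2, in fits that called 2.09 to 3.05% of all genes, beside 8.83% with all libraries.

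**Figure D3:**
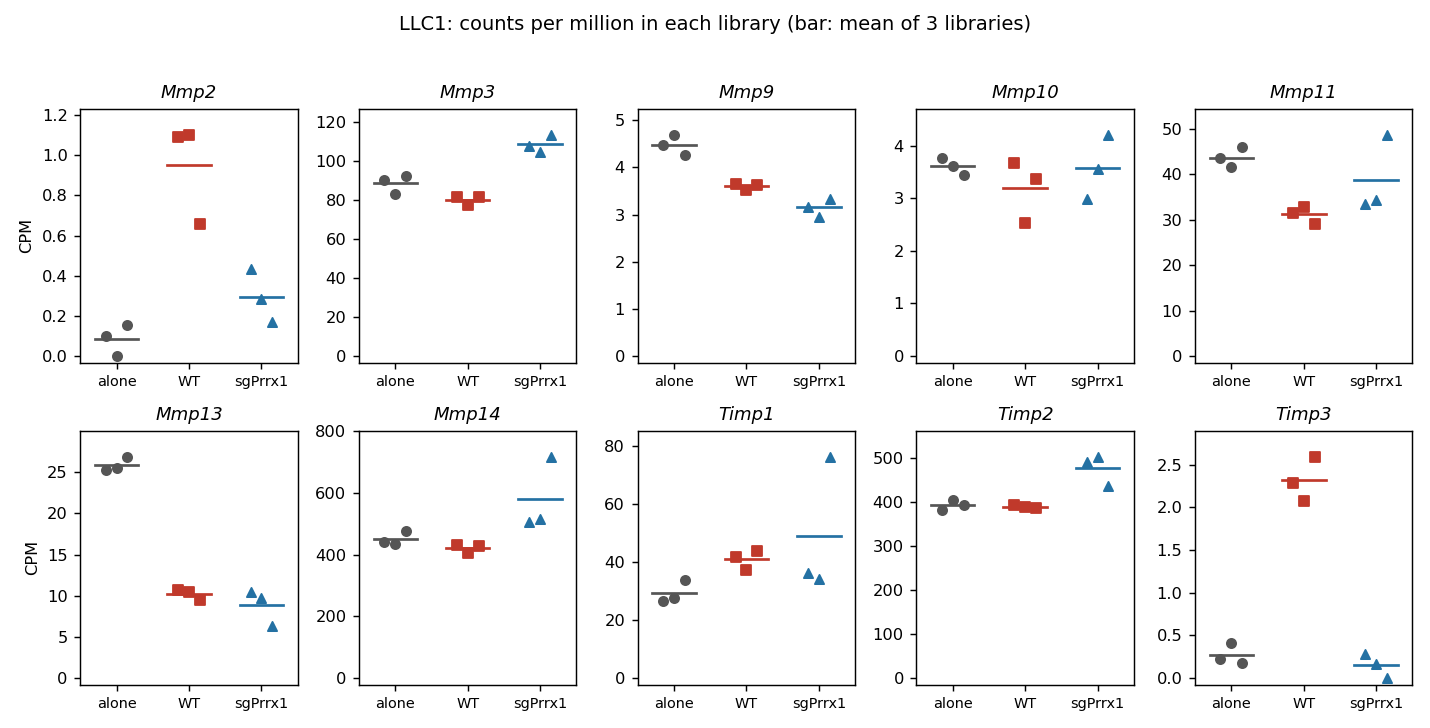
Level of each of the 10 genes in CPM (vertical axes, each starting near 0) in the 9 libraries of LLC1, with symbols and bars as for 168FARN; the rightmost triangle is sgPrrx1 replicate 3. Mmp13 was lower in both cocultures, Timp3 and Mmp2 were highest with WT fibroblasts, at low CPM, and replicate 3 of sgPrrx1 stood above its replicates for Mmp11, Mmp14 and Timp1.

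Mmp13 read 25.2, 25.6 and 26.8 CPM in LLC1 alone, 10.7, 10.4 and 9.47 CPM with WT and 10.5, 9.75 and 6.34 CPM with sgPrrx1 fibroblasts. Every coculture library was below every library of cells alone, while WT and sgPrrx1 overlapped. The log2 fold change was -1.34 for WT against alone (SE 0.177, adjusted p = 0.00536) and -1.54 for sgPrrx1 against alone (SE 0.178, adjusted p = 0.00625). Both values come from the fit without a replicate block, and with a block Mmp13 still passed for sgPrrx1 against alone. Mmp13, which of the 7 MMPs followed here had the largest rise with WT in 168FARN, thus fell in LLC1.

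Timp3 read 0.225, 0.418 and 0.180 CPM in LLC1 alone (14 to 34 reads), 2.28, 2.08 and 2.58 CPM with WT (157 to 192 reads) and 0.283, 0.165 and 0 CPM with sgPrrx1 fibroblasts (30, 14 and 0 reads). Only the WT libraries were raised, and sgPrrx1 overlapped cells alone. The rise with WT was 3.07 (SE 0.666, adjusted p = 0.0274), and the sgPrrx1 against WT change of -3.83 (SE 0.699) did not pass with all libraries (adjusted p = 0.121) and did so without sgPrrx1 replicate 3, at -3.35 (adjusted p = 0.00724). Mmp2 read 0.0999, 0 and 0.154 CPM alone (at most 12 reads), 1.09, 1.10 and 0.659 CPM with WT (49 to 88 reads) and 0.433, 0.282 and 0.171 CPM with sgPrrx1 fibroblasts. Its rise with WT was 3.48 (SE 0.755, adjusted p = 0.0275), to a mean of 0.9503 CPM, beside 30.5 CPM in 168FARN with WT. Both genes were lost as calls without alone replicate 1 or 3 or any 1 WT replicate, Timp3 also without alone replicate 2, with log2 fold changes of 2.88 to 3.51 for Timp3 and 2.89 to 4.49 for Mmp2 over all alternatives.

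Part of the fibroblast markers moved with Timp3 and Mmp2 in LLC1. Of 10 tested, 4 were higher with WT than alone (Col1a1, Col1a2, Dcn and Fbln2) and 2 lower (Col3a1 and Pdgfrb), against 4.25% and 4.58% of all genes, and Col1a2 and Fbln2 had at most 6 reads in cells alone and entered only through the cocultures. With sgPrrx1 against WT, 3 were lower (Col1a1, Col1a2 and Fbln2), against 0.0544% of all genes in either direction. Col1a1 was at 0.375, 8.60 and 0.681 CPM and Col1a2 at 0.0296, 8.68 and 0.264 CPM over the means of alone, WT and sgPrrx1, while Dcn was at 2.85, 30.1 and 21.4 CPM. Col3a1 was at 1579, 1077 and 1441 CPM and Pdgfrb at 5.59, 2.38 and 3.01 CPM, Lum (2.88, 1.74 and 2.45 CPM) and Pdgfra (78.3, 69.3 and 68.8 CPM) did not pass, and the summed 14 markers were lowest with WT. Their part in the results was not tested.

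Other MMPs in LLC1 moved by less. Mmp14 (440, 434 and 475 CPM alone, 430, 406 and 429 CPM with WT, 507, 515 and 714 CPM with sgPrrx1) was by far the most abundant, and its sgPrrx1 libraries all lay above the others. For WT against alone its log2 fold change was -0.09 (95% confidence interval -0.41 to 0.23, adjusted p = 0.761). Mmp3 read 90.1, 83.1 and 92.1 CPM alone, 81.5, 77.2 and 81.5 CPM with WT and 108, 105 and 113 CPM with sgPrrx1 fibroblasts, and here too the sgPrrx1 libraries were the highest. Its difference between sgPrrx1 and WT was 0.44 (95% confidence interval 0.25 to 0.63), which did not pass after adjustment (adjusted p = 0.127). Mmp9 was low throughout, at 4.26 to 4.68 CPM alone, 3.52 to 3.64 CPM with WT and 2.95 to 3.34 CPM with sgPrrx1 fibroblasts. Its change passed for sgPrrx1 against alone, at -0.51 (SE 0.109, adjusted p = 0.0414), a call that was lost without any 1 of the other libraries of the line and kept without sgPrrx1 replicate 3. With a replicate block, Mmp9 did not pass in this comparison (adjusted p = 0.0695). Mmp11 read 41.7 to 45.9 CPM alone, 29.2 to 32.8 CPM with WT and 33.5, 34.4 and 48.6 CPM with sgPrrx1, where replicate 3 was the highest library of all 9. Mmp10 stayed between 2.53 and 4.20 CPM in all 9 libraries, with the groups overlapping.

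Of the remaining inhibitors, Timp1 read 26.5, 27.6 and 33.8 CPM in LLC1 alone, 41.8, 37.2 and 44.0 CPM with WT and 36.3, 34.3 and 76.2 CPM with sgPrrx1 fibroblasts. The WT libraries lay above cells alone, and sgPrrx1 replicate 3 was more than double its replicates in CPM. Timp1 changed by 0.49 with WT (95% confidence interval -0.18 to 1.15, adjusted p = 0.357), and by 0.50 without sgPrrx1 replicate 3 (adjusted p = 0.00536). Its sgPrrx1 against WT difference was 0.25 with replicate 3 and -0.22 without it, and neither passed. Timp2 read 383 to 404 CPM alone, 387 to 393 CPM with WT and 491, 501 and 436 CPM with sgPrrx1 fibroblasts, the last group being the highest.

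Over the 10 genes in LLC1, sgPrrx1 against alone called 2, none higher and 2 lower (Mmp13 and Mmp9), against 2.01% higher and 2.31% lower of all genes. Without replicate 3 of sgPrrx1 this count was 6, against 26.7%, and Mmp13 stayed lowest at -1.35, with Mmp9 at -0.54 and Mmp11 at -0.36 lower and Mmp3 at 0.27, Mmp14 at 0.19 and Timp2 at 0.34 higher. For sgPrrx1 against WT, 0 of the 10 passed in edgeR's quasi-likelihood test, against 0.0544% of all genes, with 5 at an unadjusted p under 0.05, as were 12% of all genes. DESeq2 called 3 against 3.89% of all genes, limma voom with sample quality weights 7 against 36.4%, and edgeR without replicate 3 called 4 against 5.69%. These 4 were Timp3, lower, and Mmp3 at 0.40 (adjusted p = 0.0184), Mmp14 at 0.27 (adjusted p = 0.0445) and Timp2 at 0.34 (adjusted p = 0.0143), all higher with sgPrrx1. In that fit, Mmp3 and Mmp14 therefore moved in LLC1 opposite to their fall in 168FARN. Among genes with a mean of at least 100 counts in LLC1, the nearest over the 9 libraries were Slc1a4 for Mmp13 (r = 0.993), Chpf for Mmp14 (0.998), Aprt for Timp1 (0.996), Zfp553 for Mmp11 (0.990), Apobec1 for Mmp9 (0.973), Slco4a1 for Mmp3 (0.965), Pxn for Timp2 (0.952) and Padi2 for Mmp10 (0.907), while Mmp2 and Timp3 were under that mean.

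**Figure D4:**
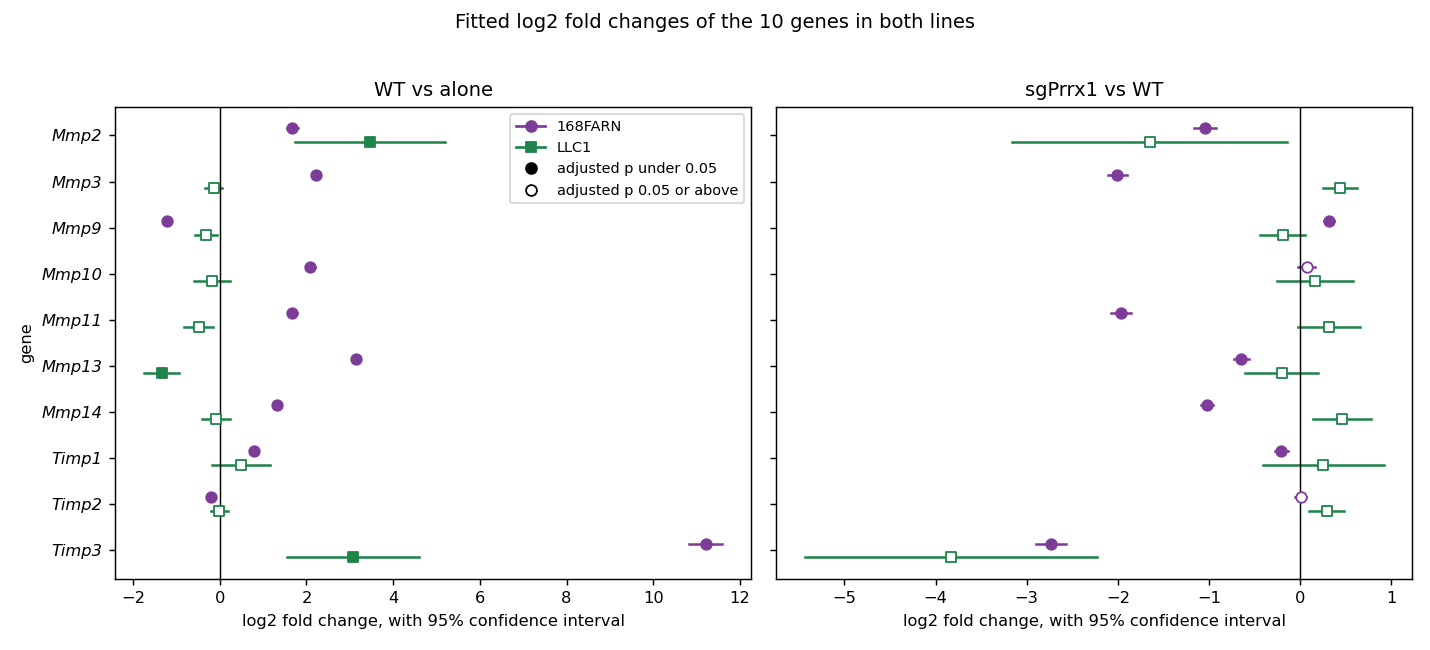
Log2 fold changes (horizontal axis) with 95% confidence intervals of the 10 genes in 168FARN (circles) and LLC1 (squares), for WT against alone on the left and sgPrrx1 against WT on the right; filled symbols have an adjusted p under 0.05. Mmp13 lies at 3.15 in 168FARN and -1.34 in LLC1 on the left, and Timp3 is lower with sgPrrx1 in both lines on the right, at -2.73 and -3.83, filled in 168FARN only.

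The responses of the lines were compared directly as interaction terms, in which LLC1 minus 168FARN is given. For WT against alone, 8 of the 10 genes differed, 2 higher and 6 lower, against 29.4% of 14365 genes. The largest differences with levels well above 0 in both lines were -4.49 for Mmp13 (SE 0.202, adjusted p = 8.17e-10), -2.36 for Mmp3, -2.26 for Mmp10 and -2.16 for Mmp11. For sgPrrx1 against WT, 5 of the 10 differed, against 19.3%. Without LLC1 sgPrrx1 replicate 3 the counts were 9 and 6, against 52.5% and 44.5% of all genes. Among the 5 were Mmp3 at 2.42 (SE 0.0895, adjusted p = 6.85e-10), Mmp11 at 2.26 (SE 0.153, adjusted p = 2.99e-07) and Mmp14 at 1.46 (SE 0.132, adjusted p = 3.95e-06). The fall of Timp3 from WT to sgPrrx1 was not shown to differ between the lines, at -1.05 (95% confidence interval -2.21 to 0.12, adjusted p = 0.211), nor was the change of Timp1 with WT, at -0.30 (95% confidence interval -0.93 to 0.33, adjusted p = 0.501).

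The pathway around these enzymes was followed in 3 further lists: 17 other MMPs and TIMPs, 20 activators, cofactors and other inhibitors, and 26 ADAM and ADAMTS proteases. In 168FARN with WT fibroblasts, 5 of the 8 other MMPs and TIMPs tested were higher, none lower and 3 did not pass, with a median of 0.48. Of 15 activators, cofactors and inhibitors tested, 10 were higher, 3 lower and 2 did not pass, with a median of 0.45. Of 18 ADAM and ADAMTS genes tested, 10 were higher, 6 lower and 2 did not pass, with a median of 0.55. The shares over all genes were 33.4% higher and 30.7% lower. Of the genes called higher, 2, 2 and 4 of the respective lists did not meet the filter on low counts in cells alone, so that their rise was a condition of being tested. They were Mmp17 (6 to 21 reads), Mmp12 (at most 5 reads) and Serpine2, Serpinb2, Adam12, Adamts2, Adamts5 and Adamts9, all at 0 reads in cells alone. Mmp12, macrophage elastase, went from 0.0260 to 1.52 CPM with WT and 0.101 CPM with sgPrrx1. Among the genes called lower, Adam33 did not meet the filter with WT.

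With sgPrrx1 against WT in 168FARN, the 3 lists gave 1 higher and 5 lower of 8, 2 higher and 11 lower of 15, and 0 higher and 15 lower of 18, with medians of -0.79, -0.46 and -0.31, against 26.9% higher and 33.1% lower of all genes. Of those called lower, 3, 1 and 3 did not meet the filter with sgPrrx1. In sgPrrx1 against alone they gave 2 higher and 1 lower, 8 higher and 6 lower, and 6 higher and 9 lower, against 25.7% and 24.1%, and of those higher, 1, 2 and 2 did not meet the filter in cells alone (Mmp1a, at 10 to 21 reads, and Serpine2, Serpinb2, Adamts2 and Adamts9), nor did Adam33, among those lower, with sgPrrx1. In LLC1, WT against alone gave 0 higher and 1 lower of 5, 5 higher and 2 lower of 15, and 2 higher and 3 lower of 13, against 4.25% and 4.58% of all genes, and Serpine2 and Adamts2, among those higher, had 0 reads in cells alone. In LLC1, sgPrrx1 against alone gave 0 higher and 1 lower, 2 higher and 0 lower, and 1 higher and 2 lower, against 2.01% and 2.31%, and none passed in sgPrrx1 against WT, against 0.0544% in either direction. Without sgPrrx1 replicate 3, WT against alone gave 1 higher and 1 lower of 5, 8 higher and 6 lower of 16, and 4 higher and 6 lower of 16, against 44.2% of all genes in either direction. Serpine2, Adam19, Adam23 and Adamts2, among those higher, had 0 reads in cells alone, and Adam33, among those lower, had 0 reads with WT. In that fit sgPrrx1 against WT gave 0 of 5, 4 higher and 3 lower of 16, and 1 higher and 0 lower of 16, against 5.69%, and sgPrrx1 against alone gave 1 higher and 1 lower, 6 higher and 1 lower, and 2 higher and 4 lower, against 26.7%, with Adamts2 again at 0 reads in cells alone.

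The plasminogen system yields the protease plasmin, which activates several pro-MMPs. Plau, the urokinase-type activator, went in 168FARN from 33.1 ± 0.197 CPM alone to 128 ± 1.66 with WT and 92.9 ± 1.35 with sgPrrx1 fibroblasts (SD, n = 3), with 1.94 for WT against alone (adjusted p = 1.06e-12). Plat, the tissue-type activator, was at 12.2, 21.9 and 9.80 CPM and fell by 1.16 on the log2 scale from WT to sgPrrx1. Serpine2, a serpin inhibitor of these activators, had 0 reads in all 3 libraries of cells alone and 382 reads over the WT libraries, at least 111-fold higher against a floor of 3 counts over the group. It was higher still with sgPrrx1, at 3.89 ± 0.240 CPM beside 2.06 ± 0.318 CPM with WT.

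Of the surface partners, Cd44, a hyaluronan receptor that can dock MMP9, went from 286 ± 5.04 CPM alone to 936 ± 10.5 with WT in 168FARN, a change of 1.71 (adjusted p = 9.86e-05). With sgPrrx1 fibroblasts its 3 libraries spread from 360 to 798 CPM. Thbs2, thrombospondin 2, which binds MMP2 for clearance, went from 134 and 118 CPM alone and with WT to 28.7 CPM with sgPrrx1, a change of -2.04 against WT (adjusted p = 7.37e-11). Adam19 was at 0.457, 6.80 and 1.48 CPM over the 3 groups, with 3.91 for WT against alone and -2.21 for sgPrrx1 against WT. Adam8 rose and fell alike, at 5.66, 15.3 and 6.60 CPM, with -1.22 for sgPrrx1 against WT (adjusted p = 2.59e-07). Adamts6 was higher with WT by 1.99, at 3.26 CPM beside 0.804 CPM alone. Mmp1b was at 3.33, 4.22 and 12.5 CPM and was 1.57 higher with sgPrrx1 than WT (adjusted p = 6.90e-08), and its paralog Mmp1a was at 0.271, 0.361 and 0.607 CPM. Whether the counting split reads between these paralogs was not tested.

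In LLC1 the genes named by the same rule were Thbs1, Adam8, Lcn2, Mmp28, Adamts10 and Adamts7. Thbs1, thrombospondin 1, went from 1.18 ± 0.257 CPM alone to 35.9 ± 1.96 with WT and 3.52 ± 2.16 with sgPrrx1 fibroblasts, a change of 4.92 for WT against alone (adjusted p = 0.00261). Like Timp3 and Mmp2 it was highest with WT, and without sgPrrx1 replicate 3 its change from WT to sgPrrx1 was -2.92 (adjusted p = 5.54e-05). Adam8 rose by 1.66 with WT, and its rise was thus seen in both lines. Lcn2, lipocalin 2, a secreted iron-siderophore-binding protein, was lower with WT in LLC1, from 160 ± 10.5 to 60.0 ± 1.29 CPM (log2 fold change -1.42, adjusted p = 0.0118), and in 168FARN too, from 1665 ± 31.8 to 666 ± 13.9 CPM (-1.32, adjusted p = 2.95e-12). Mmp28 (-0.95), Adamts10 (-0.87) and Adamts7 (-0.81) were lower with WT in LLC1.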

How the data were processed

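Per the labels and the study's methods, the authors trimmed 100 bp paired reads with Trimmomatic, aligned them with STAR to mm10 and counted reads per gene symbol with HTSeq. The deposited counts, 1 table for each line, were whole numbers, and every column was used. The methods name a ComBat-seq batch correction, which also returns whole numbers, after describing human fibroblast data. Whether these tables were corrected so, which would alter the spread between libraries, and the strand and pair settings are not given in the sources used here. Of the symbols, 95.9% matched RefSeq of GRCm38.p6, and a further 27 per table, altered to dates by a spreadsheet, are not named.

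The tests were run with edgeR 4.0.16 (R 4.3.3): filterByExpr (minimum 10 counts), TMM scaling, the 9 libraries of a line in 1 fit, two-sided quasi-likelihood tests, and Benjamini-Hochberg adjustment over all genes tested with a threshold of 0.05. CPM used TMM-scaled totals over the genes that passed the filter. Differences between lines came from a joint fit of 18 libraries. CPM per kb used the longest protein-coding transcript of GENCODE vM1. Alternatives were DESeq2 1.42.0, limma 3.58.1 voom with quality weights, RLE or no scaling, other filters, a replicate block, the 2 groups alone, and each library left out. Same-numbered libraries of LLC1 alone and sgPrrx1 had deviations from their group means that correlated at 0.131, 0.249 and 0.419, all above 0.1, so the numbers were taken to pair the libraries of that comparison, and in no other comparison did every pair exceed 0.1. Differently numbered libraries were not compared in this way, and sgPrrx1 replicate 3 stood apart, so the pairing is an assumption. No replicate pair agreed within sampling noise, so none was merged. The position of sgPrrx1 on the log2 scale was added after seeing the data. Scripts were tested on simulated data.

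The 10 genes, the lists and the tests were chosen with earlier results of these data known. Named besides the 10 were, of the 3 pathway lists, up to 6 genes for each line and comparison (WT against alone and sgPrrx1 against WT) that passed, averaged 100 counts or more over the 9 libraries and changed most, and the gene most like each of the 10. Genes named for other reasons (Mmp1a, the markers, list genes under the filter in 1 group, and values of named genes in another comparison or line) were chosen after their values were seen. The values of 1 pathway gene that the rule selects are not reported here.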

Additional observations from a re-analysis of the deposited data

Results flagged for a closer look

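For 13 values the test of the difference between the lines itself passed (interaction term in the joint edgeR fit, LLC1 minus 168FARN, log2 scale). Each line was grown with its own kind of fibroblast, so the lines and the fibroblasts cannot be told apart here. In WT against alone, Mmp13 differed by -4.49, being higher with WT fibroblasts in 3 of 3 libraries of 168FARN and lower in 3 of 3 of LLC1. Mmp3 differed by -2.36, Mmp10 by -2.26, Mmp11 by -2.16 and Mmp14 by -1.40, all of them genes that rose in 168FARN and did not pass in LLC1. Timp3 differed by -8.17 (adjusted p = 7.03e-06), a value that rests on 2 reads in 168FARN alone. Mmp9 differed by 0.91 (adjusted p = 3.10e-07), since it fell by more in 168FARN. Mmp2 differed by 1.81 (SE 0.561, adjusted p = 0.0241), from at most 88 reads per library in LLC1, and its adjusted p ranged from 2.35e-05 to 0.0548 over the alternatives.

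In sgPrrx1 against WT, Mmp3 differed by 2.42, Mmp11 by 2.26 and Mmp14 by 1.46, genes that fell in 168FARN and had positive log2 fold changes in LLC1 that did not pass with all libraries. Mmp9 differed by -0.53 (adjusted p = 0.000137). Timp2 differed by 0.26 (adjusted p = 0.0483), the value nearest to the threshold, and its adjusted p ranged from 1.47e-06 to 0.110 over the alternatives.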

How the results depend on the processing

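In 168FARN the counts of called genes were 10, 10 and 8 in each leave-one-out fit, and all 169 single values of WT against alone, as of sgPrrx1 against alone, kept direction and side of the threshold. LLC1 depended on the fit. For WT against alone (3 called, against 8.83% of all genes), DESeq2 called 5 (17.7%), voom with quality weights 7 (58.6%), at least 10 counts in every library 1 (8.28%) and only the 2 groups 6 (40.7%), and leaving out single libraries gave 1 to 6 (2.09 to 44.2%). For sgPrrx1 against alone (2 called, against 4.32%), DESeq2 called 4 (15.1%), voom 8 (48%), no filter beyond 1 count 1 (2.32%), only the 2 groups 0 (0.215%) and leave-one-out fits 1 to 6, with 6 only without sgPrrx1 replicate 3 (26.7%) and 1 without any other single library (0.398 to 1.61%). For sgPrrx1 against WT (0 called), DESeq2 called 3 (3.89%), voom 7 (36.4%) and leave-one-out fits 0 to 4, with 4 without sgPrrx1 replicate 3 (5.69%). The share of all genes called moved with most of these counts. The cause of these shifts was not tested. In LLC1 Mmp13 passed for WT against alone under all 17 alternatives (adjusted p at most 0.0344).

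In LLC1 sgPrrx1 against alone, where same-numbered libraries deviated together, a replicate block left 1 gene called (against 2.96% of all genes), as Mmp9 was lost (adjusted p = 0.0695). In the other comparisons not every same-numbered pair exceeded 0.1. The mean correlation of deviations was -0.0087 in 168FARN, and the pairs of LLC1 alone and WT were at -0.0414, 0.0932 and 0.154. There the block lost Mmp2 in LLC1 WT against alone (adjusted p = 0.0529) and Timp2 in the difference between lines in sgPrrx1 against WT (adjusted p = 0.0505).

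Signs changed for Timp2, Mmp10 and Timp1 in comparisons where they had not passed. Timp2 in 168FARN sgPrrx1 against WT was -0.0421 without scaling factors and -0.01055 to 0.0352 in leave-one-out fits. Timp2 in LLC1 WT against alone was 0.00726 with RLE scaling, 0.00726 with DESeq2, 0.00529 with voom, 0.0108 with at least 10 counts and -0.0326 to 0.0177 in leave-one-out fits. Mmp10 in LLC1 was -0.139 to 0.101 for sgPrrx1 against alone in leave-one-out fits and -0.0788 for sgPrrx1 against WT with voom. Timp1 in LLC1 sgPrrx1 against WT was -0.217 with voom (adjusted p = 0.0348) and -0.221 without sgPrrx1 replicate 3, with 0.453 the highest of the leave-one-out fits. For the difference between lines in sgPrrx1 against WT, Mmp10 was -0.163 with voom and -0.0746 to 0.184 in leave-one-out fits, and Timp1 was -0.0315 with voom and -0.0438 to 0.626 in leave-one-out fits. Reads were few for Mmp2 and Timp3 in LLC1 and for Timp3 in 168FARN alone.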
